A study of Homo sapiens with 2 samples.

Results

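Long non-coding RNAs of named intergenic genes (symbols starting with LINC and a number) and of antisense genes (symbols ending in -AS1, -AS2 or -AS3) were described in UACC62 cells, an established human melanoma line, with and without depletion of FOSL1. Members were chosen by the mean log2 value of the gene's brightest probe set over both arrays, which had to be 7 or more and left 350 of the 933 genes with such symbols and of the 14884 named genes in all. Of the members, 142 were LINC genes and 208 were antisense genes. The mean is therefore a description, whereas the difference between the arrays was not used in choosing them. RefSeq annotates 346 of the members as lncRNA and 4 as antisense RNA, so most genes with an antisense symbol are labelled lncRNA there.

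One culture received an siRNA specific for FOSL1 and the other culture a non-targeting control siRNA, both for 3 days, and each was measured on 1 whole-transcript array from 100 ng of total RNA. Both cultures were of 1 line grown in DMEM with 10% FCS, and neither had a replicate, so no difference below has a replicate error or a test. A difference owed to less FOSL1 and one owed to other targets of this siRNA cannot be told apart. FOSL1 itself, a FOS family subunit of the transcription factor AP-1, had a log2 value of 10.38 with FOSL1 siRNA and 11.90 with control siRNA, a difference of -1.53.

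Long non-coding RNAs are transcripts without a long open reading frame. Some act at the site where they are made, on the gene beside or opposite them, and others act elsewhere in the cell by binding proteins or other RNAs. An antisense RNA is read from the strand opposite a coding gene, and many start beside the coding gene from a shared promoter. AP-1, of which FOSL1 is a subunit, binds the 7-base element TGACTCA, read as TGAGTCA on the other strand. Related bZIP dimers bind the 8-base element TGACGTCA. The 7-base element was searched here in the wider form TGANTCA, which also takes in TGAATCA and TGATTCA.

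RefSeq promoter windows of GRCh38.p14, from 250 bases before to 50 bases after a start, were found for 269 of the 350 members. LINC02525 and LINC00520, the members with the lowest differences, had no window and were not searched. Both elements were searched on either strand, each is its own reverse complement in these letters, and neither can lie inside the other. At least 1 of them stood in 32 of 308 member windows (10.4%), against 3333 of 35116 windows of all genes in the table (9.49%). TGANTCA was in 8.44% of member windows and 7.71% of all windows, and TGACGTCA was in 2.27% and 1.85%. The members' share was thus close to that of all genes. The windows below are those of the 7 members that hold an element and differed between the arrays by at least 0.3 log2 units, 2 lower and 5 higher with FOSL1 siRNA. This limit was set after the values were seen, and the element is in capitals.
LINC00111, chr21:41679052-41679351, plus strand: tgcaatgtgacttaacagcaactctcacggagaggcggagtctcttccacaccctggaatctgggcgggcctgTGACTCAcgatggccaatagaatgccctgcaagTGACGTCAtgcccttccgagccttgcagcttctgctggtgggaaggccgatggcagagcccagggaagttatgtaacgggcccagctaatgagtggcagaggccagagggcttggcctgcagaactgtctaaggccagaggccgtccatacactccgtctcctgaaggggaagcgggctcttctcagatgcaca
LINC00265, chr7:39733318-39733617, plus strand: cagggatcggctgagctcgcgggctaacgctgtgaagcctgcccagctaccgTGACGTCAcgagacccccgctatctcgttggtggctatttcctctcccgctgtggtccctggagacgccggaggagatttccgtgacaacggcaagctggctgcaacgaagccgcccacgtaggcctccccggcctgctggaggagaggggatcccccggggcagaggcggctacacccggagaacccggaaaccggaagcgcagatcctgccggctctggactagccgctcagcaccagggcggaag
GABPB1-AS1, chr15:50353924-50354223, plus strand: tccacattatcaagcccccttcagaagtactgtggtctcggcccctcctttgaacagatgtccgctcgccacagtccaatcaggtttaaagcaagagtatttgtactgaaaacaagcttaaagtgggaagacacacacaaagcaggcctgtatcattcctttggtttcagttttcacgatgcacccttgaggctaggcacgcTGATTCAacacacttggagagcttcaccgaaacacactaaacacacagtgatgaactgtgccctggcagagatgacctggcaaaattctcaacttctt
PTPRG-AS1, chr3:62318898-62319197, minus strand: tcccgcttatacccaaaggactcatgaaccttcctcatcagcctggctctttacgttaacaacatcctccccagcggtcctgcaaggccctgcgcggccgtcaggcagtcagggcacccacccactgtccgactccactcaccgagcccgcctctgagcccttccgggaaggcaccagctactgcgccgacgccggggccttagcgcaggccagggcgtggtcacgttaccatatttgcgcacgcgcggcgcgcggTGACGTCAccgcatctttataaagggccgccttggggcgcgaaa
LINC00987, chr12:9239823-9240122, plus strand: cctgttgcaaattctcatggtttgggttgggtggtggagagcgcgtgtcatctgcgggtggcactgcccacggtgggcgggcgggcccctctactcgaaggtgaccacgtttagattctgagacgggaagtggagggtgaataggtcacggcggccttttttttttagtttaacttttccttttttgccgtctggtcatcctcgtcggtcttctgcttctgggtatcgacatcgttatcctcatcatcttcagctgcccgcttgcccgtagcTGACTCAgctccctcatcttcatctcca
LINC00630, chrX:102768903-102769202, plus strand: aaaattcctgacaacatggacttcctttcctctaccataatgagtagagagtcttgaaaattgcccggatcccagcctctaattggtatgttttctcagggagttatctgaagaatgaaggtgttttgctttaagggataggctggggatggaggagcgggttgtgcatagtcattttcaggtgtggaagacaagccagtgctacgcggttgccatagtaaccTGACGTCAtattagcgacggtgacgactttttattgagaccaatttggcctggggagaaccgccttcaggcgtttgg
LINC00339, chr1:22024941-22025240, plus strand: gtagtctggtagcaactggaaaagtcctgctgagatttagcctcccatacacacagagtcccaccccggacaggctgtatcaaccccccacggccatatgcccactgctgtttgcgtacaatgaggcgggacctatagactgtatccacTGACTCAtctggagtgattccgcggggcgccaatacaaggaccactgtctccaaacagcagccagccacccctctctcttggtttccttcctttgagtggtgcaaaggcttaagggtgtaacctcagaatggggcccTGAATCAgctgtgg

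LINC00111 held both elements, upstream of the start, and had log2 values of 6.89 with FOSL1 siRNA and 7.46 with control siRNA, a difference of -0.57. The first of these values was below the threshold of 7. Its mean of 7.17 was also below 7.27, the highest mean among markers of cell types that a melanoma culture should lack. LINC00265, with TGACGTCA, had 9.23 with FOSL1 siRNA and 9.54 with control siRNA, and its 2 dimmer probe sets were also lower, by -0.24 and -0.18. GABPB1-AS1, described as limiting the translation of the ETS partner gene GABPB1, carried TGATTCA, a match of the wider form only. This RNA had 8.03 with FOSL1 siRNA and 7.56 with control siRNA. PTPRG-AS1, antisense to a receptor tyrosine phosphatase gene, had 7.26 with FOSL1 siRNA and 6.77 with control siRNA, the second of these below the threshold of 7. LINC00987 had its element just after the start and was higher with FOSL1 siRNA by 0.49. LINC00630 was higher by 0.38. LINC00339, with TGACTCA before the start and the wider match TGAATCA after it, had 7.57 with FOSL1 siRNA and 7.22 with control siRNA. Members with an element therefore lay on both sides of 0. Of the 32 genes with an element in a window, 17 were above 0 and 15 below with a median of 0.03, and of the 237 with windows but no element, 93 were above and 144 below with a median of -0.07. A match of letters is a description and shows no binding, and windows of 300 bases leave out distal sites.

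The shares of members past each fold were close to those of all named genes with a mean of 7 or more. The members were dimmer, with a median mean of 7.68 against 8.85. With FOSL1 siRNA, 4 of 350 members (1.14%) were at least 1.5-fold higher, against 1.53% of the 10449 named genes with a mean of 7 or more. At least 1.5-fold lower were 3 members (0.857%), against 0.88% of these genes. At least 0.32 log2 units apart, a smaller step, were 31 members higher (8.86%) and 31 lower (8.86%), against 8.01% and 7.49% of all such genes. No member reached 2-fold in either direction, a size that 0.163% of these genes passed upwards and 0.0287% downwards. The median difference of the members was -0.04 with an SD across members of 0.25, and that of all genes with a mean of 7 or more was -0.01 with an SD of 0.24. At like brightness the shares differed, on few calls. Below a mean of 7.5, 1 of 136 members (0.735%) was at least 1.5-fold higher and 1 lower, against 2.48% and 1.54% of all genes. At a mean of 9 or more, 1 of 45 members (2.22%) was higher and 1 lower, against 0.659% and 0.576%.

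**Figure D1:**
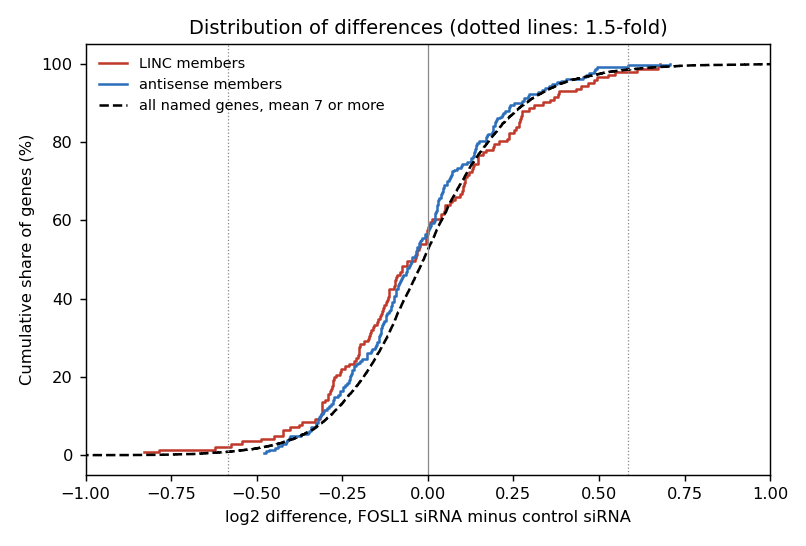
Cumulative share of genes (y axis, percent) by log2 difference, FOSL1 siRNA minus control siRNA (x axis), for LINC members (red), antisense members (blue) and all named genes with a mean of 7 or more (dashed black). The curves nearly coincide, with medians of -0.04, -0.05 and -0.01; members on the Y chromosome are not drawn.

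LINC genes spread somewhat more widely than antisense genes. Their median was -0.04 with an SD of 0.28, and of 142 genes 3 passed 1.5-fold upwards (2.11%) and 3 downwards (2.11%). Antisense genes had a median of -0.05 with an SD of 0.22, and of 208 genes 1 passed 1.5-fold upwards (0.481%) and 0 downwards. Over all genes with a mean of 7 or more these shares were 1.53% and 0.88%. So few calls are no result about either kind. Below 0 were 200 of the members (57.1%) and above 0 were 150 (42.9%), against 52.4% and 47.5% of all genes with a mean of 7 or more. Other genes annotated as lncRNA or antisense RNA in RefSeq, 217 in number, had a median of 0.01, and 9311 protein-coding genes had -0.01.

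The lean of the members to values below 0 was set beside brightness and gene length. Among members with a mean below 7.5 the median was -0.08 and 83 of 136 were below 0, whereas among the 45 with a mean of 9 or more it was -0.01 and 24 were below 0. All genes with a mean below 7.5 had a median of -0.06, with 60.0% below 0. The members' genes spanned a median of 8.16 kb of the genome, against 27.2 kb for protein-coding genes with a mean of 7 or more. With members split by span into 4 groups of 87 or 88, the median difference was -0.03 in the shortest group, -0.14 in the next (3.80 to 8.06 kb), -0.04 in the third and 0.03 in the longest (22.8 to 543 kb). It did not run steadily with span. Across members, the log10 of span and the difference had a Pearson correlation of 0.14 (n = 350), and across all genes with a mean of 7 or more 0.28 (n = 10449); genes on 1 pair of arrays are not independent. With a trend on span removed, the median of the members was 0.0035, and with a trend on brightness removed it was -0.0106. The part of brightness and span in the single differences was not tested.

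Dim values limit the set. The named markers of keratinocytes, leukocytes and endothelium, cell types that a melanoma culture should lack, reached a mean of 7.27 on these arrays (VWF of endothelium), and 71 members (20.3%) had a mean no higher than that. Such a level is not evidence of a transcript. Both arrays were at 7 or more for 324 members. Values of different probe sets depend on their probes, so a higher value of 1 gene is not a larger amount of RNA than another gene's. Just inside the threshold lay CNTFR-AS1, PTPRG-AS1 and LINC01432 with means of 7.005, 7.013 and 7.014, and just outside it NEBL-AS1, SPAG5-AS1 and C1RL-AS1 with 6.995, 6.988 and 6.985. Of 7 named melanocytic genes 5 had a mean of 7 or more. SOX10, the lineage transcription factor, had 10.77 with FOSL1 siRNA and 11.07 with control siRNA, the pigment gene TYR 10.98 and 11.31, MITF 9.09 and 8.73, MLANA 9.69 and 9.57, and S100B 13.09 and 13.18. The pigment genes PMEL and TYRP1 had means of 6.76 and 6.48. None of the 4 named keratinocyte markers reached a mean of 7, while the proteoglycan LUM, on the fibroblast list, had 11.53 with FOSL1 siRNA and 11.05 with control siRNA and the fibroblast gene DCN had 3.97 and 4.15. The part of other cells in the differences was not tested.

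**Figure D2:**
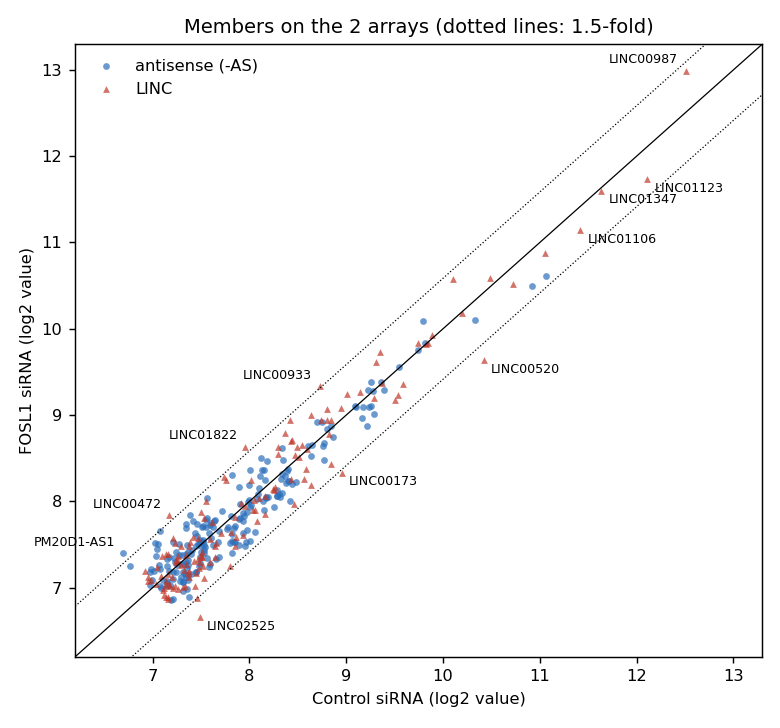
Log2 value of each member with FOSL1 siRNA (y axis) and with control siRNA (x axis), 1 array each, for antisense genes (blue circles) and LINC genes (red triangles); dotted lines mark 1.5-fold, and members on the Y chromosome are not drawn. Most points lie between the dotted lines, and 7 members lie outside them.

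LINC00520 gave the clearest lower value at a bright signal. LINC00520 (Entrez gene 645687, probe set 16793299), a long intergenic RNA on chromosome 14 that has been studied in melanoma and other cancers, had log2 values of 9.63 with FOSL1 siRNA and 10.42 with control siRNA. The difference of -0.79 is a level 1.72-fold lower, and this gene had 1 probe set. LINC02525, on chromosome 6, differed the most of all members, with 6.66 with FOSL1 siRNA and 7.49 with control siRNA, a difference of -0.83, but its value with FOSL1 siRNA was below 7. LINC00173, described in granulocyte development, had 8.33 with FOSL1 siRNA and 8.96 with control siRNA, 1.54-fold lower. Its 3 dimmer probe sets, all with means below 7, were lower as well, by -0.28, -0.14 and -0.07.

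Other members at the lower end came close to 1.5-fold. LINC01298 had 7.26 with FOSL1 siRNA and 7.80 with control siRNA, LINC01548 had 7.97 and 8.46, and LINC00163 had 8.19 and 8.63. LINC01548, LINC00163 and LINC00111 all lie on chromosome 21, where the median of 15 members was -0.08. Medians of the chromosomes ranged from -0.16 (chromosome 4, 10 members) to 0.07 (chromosome X, 8 members), so chromosome 21 did not stand out. AFAP1-AS1, an antisense RNA found raised in several carcinomas, had 6.90 with FOSL1 siRNA and 7.38 with control siRNA, around the level of absent markers. ECE1-AS1, H1-10-AS1 and TNFRSF14-AS1 differed by -0.47, -0.46 and -0.44. ARHGAP5-AS1 was the bright antisense gene at this end, with 10.61 with FOSL1 siRNA and 11.06 with control siRNA, a difference of -0.45.

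At the higher end, PM20D1-AS1 had the highest positive difference among members, 0.71, with 7.40 with FOSL1 siRNA against 6.69, below the threshold, with control siRNA. LINC01822, on chromosome 2, had 8.64 with FOSL1 siRNA and 7.96 with control siRNA, 1.60-fold higher. LINC00472, described as a growth-limiting RNA in breast cancer, had 7.84 with FOSL1 siRNA and 7.17 with control siRNA, 1.59-fold higher. LINC00933 had 9.33 with FOSL1 siRNA and 8.73 with control siRNA, 1.53-fold higher, while its dimmer probe set, with a mean below 7, differed by -0.02. Both arrays were at 7 or more for 5 of the 7 members at least 1.5-fold apart.

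Next in order came RBM26-AS1 at 0.58, LINC00648 at 0.55, LINC00997 at 0.53, EPB41L4A-AS1 and LINC02035 at 0.49, and ATP2B1-AS1 at 0.49. EPB41L4A-AS1, a host of a small nucleolar RNA, had 7.51 with FOSL1 siRNA and 7.02 with control siRNA. LINC00648 had 8.28 with FOSL1 siRNA and 7.74 with control siRNA, and LINC00997 had 8.95 and 8.42. ATP2B1-AS1, opposite a plasma membrane calcium pump gene, had 8.31 with FOSL1 siRNA and 7.82 with control siRNA.

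**Figure D3:**
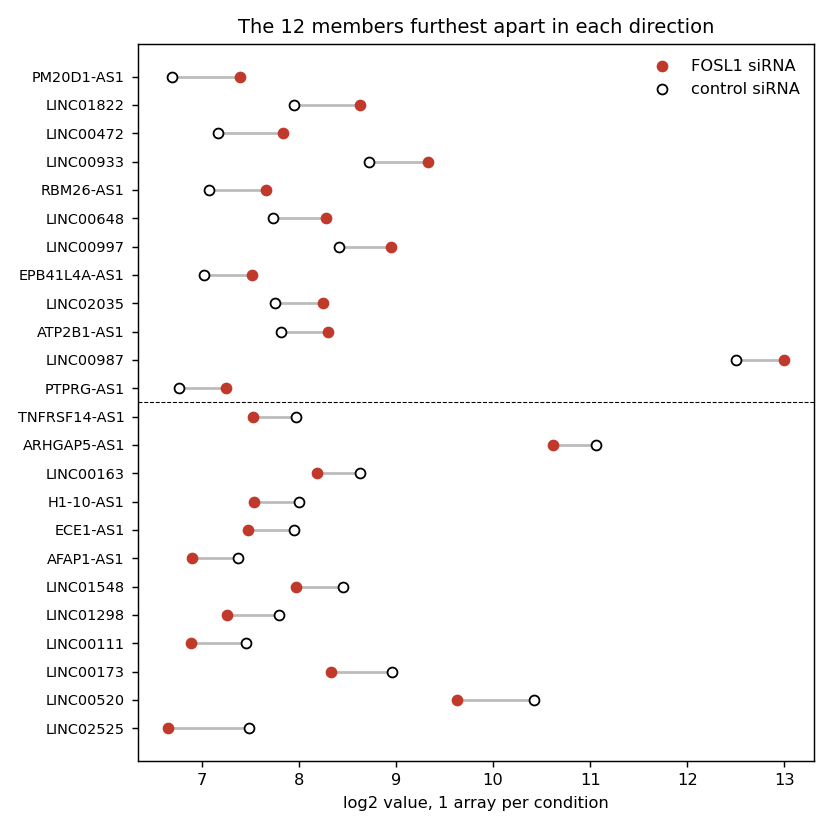
Log2 values (x axis) with FOSL1 siRNA (filled red) and control siRNA (open black) for the 12 members with the highest (above the dashed line) and the 12 with the lowest difference (below it), 1 array per condition. LINC00520, at 9.63 and 10.42, and LINC00987, at 12.99 and 12.51, are bright members below and above the dashed line.

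The 10 members with the highest means were LINC00987, LINC01123, LINC01347, LINC01106, LINC01000, ARHGAP5-AS1, NHSL1-AS1, LINC01061, LINC00999 and LINC01239. LINC01123, described as a MYC-driven RNA in lung cancer, had 11.74 with FOSL1 siRNA and 12.11 with control siRNA, a difference of -0.38. LINC01106 had 11.14 with FOSL1 siRNA and 11.42 with control siRNA. LINC01239 had 10.57 with FOSL1 siRNA and 10.10 with control siRNA, a difference of 0.47. NHSL1-AS1 had 10.50 with FOSL1 siRNA and 10.92 with control siRNA. These bright members thus lay on both sides of 0. LINC01347, LINC01061, LINC01000 and LINC00999 had between 3 and 7 probe sets each. Whether such genes share probes with near-identical copies was not tested, so their values are uncertain.

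Several members with a described part in melanoma, epidermis or invasion were chosen after their values were seen. LINC00673, also called SLNCR and described in melanoma invasion, had 9.37 on both arrays. LINC00518, used with PRAME in a skin test for melanoma, had 8.95 with FOSL1 siRNA and 8.80 with control siRNA. LINC00473, an RNA induced through cyclic AMP and CREB, had 8.51 with FOSL1 siRNA and 8.52 with control siRNA. LINC00941, described as a repressor of keratinocyte differentiation, had 9.17 with FOSL1 siRNA and 9.50 with control siRNA, a difference of -0.33. LINC00511 had a difference of 0.27, but 0.03 by its dimmer probe set, which had a mean of 8.28. The EMT-related ZEB2-AS1 had a difference of 0.29, and 0.13 by its dimmer probe set, which had a mean of 6.25. Of these 6 RNAs, LINC00941 differed by over 0.32 log2 units and the others by less.

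Where a member had several probe sets, they often differed. Of the 42 such members, 25 had probe sets of 1 sign and 17 of both signs. Among the 21 with at least 2 distinct probe sets at a mean of 7 or more, the brightest and the next had the same sign in 13 and opposite signs in 8, with an SD of 0.22 within genes. Over 398 named genes measured so, that SD was 0.20 and the sign was the same in 271. The differences of the 2 probe sets had a correlation of -0.096 across the 21 members and 0.40 across the 398 genes. The probe sets of LINC00987 lay on opposite sides of 0. Its brightest probe set had 12.99 with FOSL1 siRNA and 12.51 with control siRNA, a difference of 0.49, while the dimmer set had 7.55 and 7.76, a difference of -0.22. The widest gap among the 21 was that of LINC03027, which had 0.05 by its brightest probe set and -0.73 by a dimmer one, with 6.78 with FOSL1 siRNA and 7.504 with control siRNA. LINC00265, LINC00029, GAS6-AS1 and LINC01000, chosen after their values were seen, were lower by each of their probe sets. This SD was measured inside the same 2 arrays and holds no variation between cultures.

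**Figure D4:**
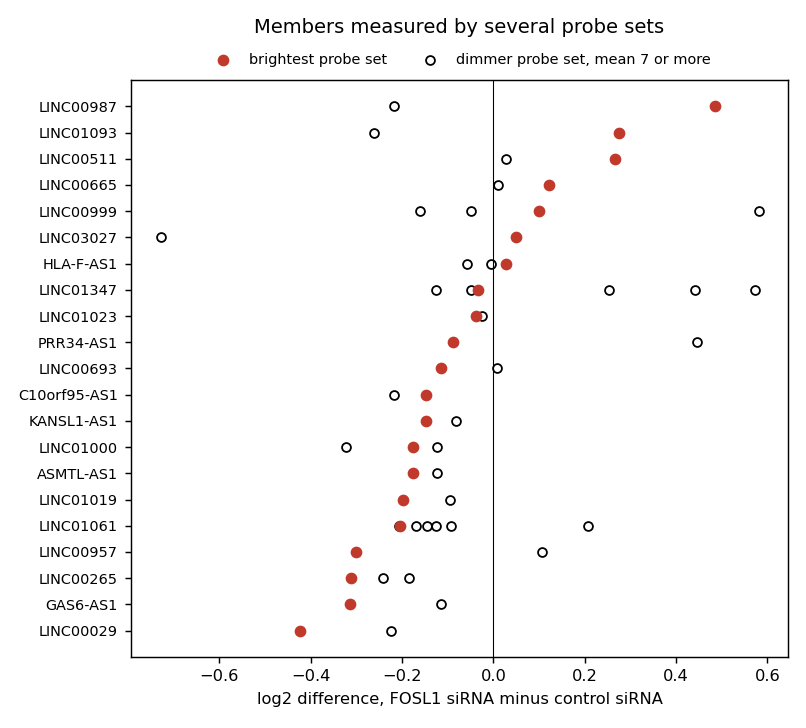
Log2 difference, FOSL1 siRNA minus control siRNA (x axis), by the brightest probe set (filled red) and by dimmer probe sets with a mean of 7 or more (open black) for the 21 members with at least 2 distinct such probe sets (rows). In 8 of them the brightest and the next probe set lie on opposite sides of 0.

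Antisense members were set beside the sense gene, found by removing the suffix from the symbol and not by strand. Of 208 antisense members, 141 had a named sense gene and 126 had 1 with a mean of 7 or more. The differences had the same sign in 70 of these 126 pairs (55.6%): both were higher with FOSL1 siRNA in 25 and both lower in 45. In 28 pairs the antisense RNA was higher and the sense gene lower, and in 28 the reverse. Both sides of these pairs leaned below 0, with medians of -0.053 for antisense and -0.046 for sense genes. The share of same signs that such a lean alone would give was not tested. The Pearson correlation across the 126 pairs was 0.17; the pairs share the 2 arrays. With a trend on span removed, 62 pairs had the same sign. In 38 pairs the RefSeq starts of the 2 genes lay within 1000 bases on opposite strands, and there 24 had the same sign (63.2%, correlation 0.31), against 22 of 45 (48.9%, 0.12) where they lay further apart. In the other 43 pairs the starts were not both in the table or had the same strand there, and 24 of these had the same sign (55.8%, 0.04). This split was made after the values were seen, and the difference between the 2 shares was not tested.

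RBM26-AS1 and RBM26, a gene for an RNA-binding protein, were both higher. Their RefSeq starts lie 54 bases apart, head to head, and the window of RBM26-AS1 shows both, with the bases from the RBM26 start up to that of RBM26-AS1 in capitals.
RBM26-AS1, chr13:79406059-79406358, plus strand: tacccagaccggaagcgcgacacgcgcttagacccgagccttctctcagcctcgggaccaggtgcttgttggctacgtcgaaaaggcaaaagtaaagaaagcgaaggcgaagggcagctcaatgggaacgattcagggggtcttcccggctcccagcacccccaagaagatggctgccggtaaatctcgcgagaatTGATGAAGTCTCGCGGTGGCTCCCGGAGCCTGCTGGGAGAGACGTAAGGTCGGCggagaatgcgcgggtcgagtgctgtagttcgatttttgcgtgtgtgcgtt
RBM26-AS1 had 7.66 with FOSL1 siRNA and 7.07 with control siRNA, and RBM26 had 10.21 with FOSL1 siRNA and 9.82 with control siRNA, differences of 0.58 and 0.39. A second probe set of RBM26-AS1, at 4.504 with FOSL1 siRNA and 4.996 with control siRNA, went the other way.

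STARD4-AS1 and the sterol carrier gene STARD4, with starts 309 bases apart, differed by 0.23 and 0.58. STARD4 had 9.04 with FOSL1 siRNA and 8.46 with control siRNA, and its antisense RNA had 7.502 with FOSL1 siRNA and 7.276 with control siRNA. ZNF566-AS1 and the zinc finger gene ZNF566, 66 bases apart, differed by 0.20 and 0.58. PDCD4-AS1 differed by 0.13, beside 0.76 for PDCD4, an inhibitor of translation initiation known as a tumour suppressor, which had 8.69 with FOSL1 siRNA and 7.92 with control siRNA. HAS2-AS1, the natural antisense RNA of the hyaluronan synthase gene HAS2, differed by 0.13, and HAS2 by 0.42.

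FEZF1-AS1 and FEZF1 were both lower. FEZF1-AS1, described in colorectal and other cancers, had 7.65 with FOSL1 siRNA and 8.06 with control siRNA, and the transcription factor gene FEZF1 had 7.20 and 7.55, differences of -0.41 and -0.35. This pair and the RBM26 pair were the 2 of the 126 in which both genes differed by over 0.32 log2 units. THAP9-AS1 at 0.46 and THAP9 at 0.44, with starts 181 bases apart, did so too, but THAP9 had a mean of 6.31 and was not among the 126. MELTF-AS1 and MELTF, the gene of the melanoma antigen melanotransferrin, differed by -0.30 and -0.46. MELTF had 7.65 with FOSL1 siRNA and 8.12 with control siRNA. NHSL1-AS1 and NHSL1 differed by -0.43 and -0.23.

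Other pairs went apart. ARHGAP5-AS1 was at -0.45 and ARHGAP5, whose start lies 605 bases away, at 0.12. AFAP1-AS1 was at -0.48 and the actin filament gene AFAP1 at 0.08. LIN28B-AS1 was at -0.11 and LIN28B, which blocks let-7 maturation, at 0.39. TMEM147-AS1 was at -0.34 and TMEM147 at 0.01, and ALOX12-AS1 was at 0.21 and the lipoxygenase gene ALOX12 at -0.38. KDM4A-AS1 was at 0.39 while the histone demethylase gene KDM4A was close to 0, at 0.0041, so this pair counts among those of the same sign. In 34 pairs either gene differed by over 0.32 log2 units, and 22 of these had the same sign. Which strand the probes read is not given in the sources used here, and signal of a sense gene and its antisense partner may not be fully separate.

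**Figure D5:**
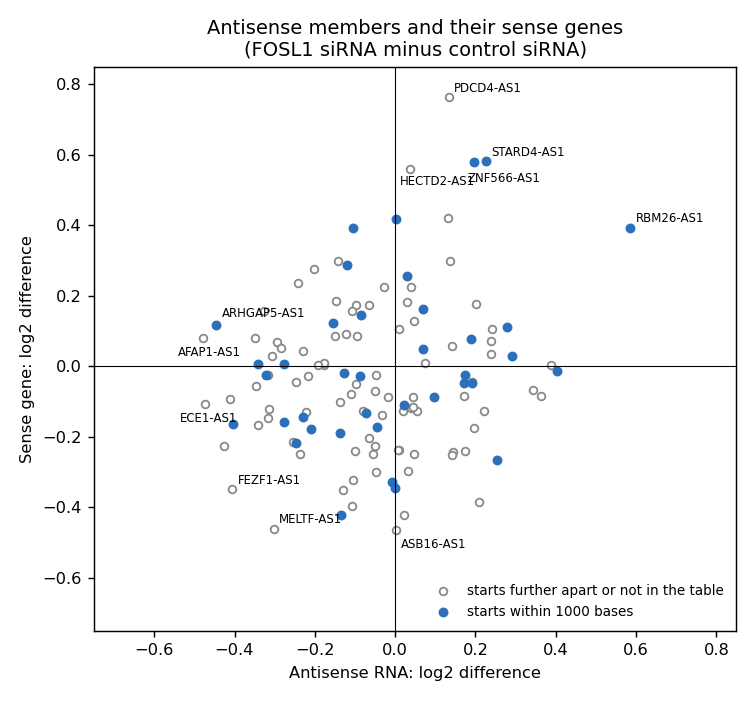
Log2 difference, FOSL1 siRNA minus control siRNA, of the sense gene (y axis) and of its antisense member (x axis) for 126 pairs; filled blue points have RefSeq starts within 1000 bases. RBM26-AS1 lies in the upper right at 0.58 and 0.39, and 70 of the 126 pairs lie in the upper right or the lower left.

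LINC members were set beside the nearest protein-coding gene with a named probe set in the RefSeq order of GRCh38.p14. For 118 LINC members that gene had a mean of 7 or more, and 61 of the 118 (51.7%) had the same sign as the LINC gene, with a correlation of 0.11 across them. Within 10 kb it was 15 of 27. Where the neighbour was also the nearest coding gene in RefSeq, it was 33 of 64. Some neighbours lay far off, such as BCL11A at 1387 kb from LINC01122. Some, such as RIPK4, served more than a single LINC member, so the pairs are not independent. Higher LINC genes had neighbours on either side of 0. LINC00648 at 0.55 lies nearest to MDGA2, a cell adhesion gene, at 0.48 (9.20 with FOSL1 siRNA and 8.71 with control siRNA). LINC00933 at 0.61 lies nearest to ZSCAN2 at 0.34, LINC00472 at 0.67 to OGFRL1 at 0.18, and LINC00997 at 0.53 to KBTBD2 at 0.22. LINC02035 at 0.49 lies nearest to SLC49A4 at -0.06, and LINC01239 at 0.47 to DMRTA1 at -0.01. Some higher LINC genes had nearest named neighbours with means below 7, also on either side of 0. For LINC01822 and LINC00977, at 0.68 and 0.43, they were APOB at -0.29 and GSDMC at -0.25, 643 and 464 kb away. For LINC00987 at 0.49 it was PZP at 0.27, 31.7 kb away.

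Lower LINC genes also had neighbours on either side of 0. LINC00173 at -0.62 lies nearest to MAP1LC3B2, an LC3 gene of autophagy, at -0.16, and LINC00111 at -0.57 to the kinase gene RIPK4 at -0.13. LINC01298 at -0.54 lies nearest to CFAP418 at 0.49, in the opposite direction. For LINC00520, the nearest coding gene KTN1 had no named probe set, and the next with 1, PELI2, differed by 0.01. For LINC02525 the nearest, TUBB2A, also had none, and the next with 1 was WRNIP1 at -0.01. LINC01548 at -0.49 and LINC00163 at -0.45 had OLIG1 at 0.02 and PTTG1IP at 0.09 as their nearest named neighbours.

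Long non-coding RNAs named otherwise were described from a list of 50. Of these, 30 had a named probe set and 25 a mean of 7 or more, 1 of which, EPB41L4A-AS1, is also a member. Above 0 were 12 and below 0 were 13, with a median of -0.02, and 1 was at least 1.5-fold higher. That 1 was CASC15, a long RNA gene described in melanoma and neuroblastoma, with 8.19 with FOSL1 siRNA and 7.53 with control siRNA, a difference of 0.66. CRNDE, raised in colorectal tumours, had 8.57 with FOSL1 siRNA and 8.05 with control siRNA. BANCR, first described as a BRAF-activated RNA in melanoma, had 10.90 with FOSL1 siRNA and 10.59 with control siRNA. The nuclear RNA MALAT1 differed by 0.25, the cytoplasmic NORAD by 0.15 and CYTOR by 0.17. On the other side, RPPH1, the RNA of ribonuclease P, had 8.72 with FOSL1 siRNA and 9.23 with control siRNA, and the small nucleolar RNA hosts SNHG15 and SNHG17 differed by -0.26 and -0.23. GAS5 and DANCR differed by 0.02 and -0.02.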

How the data were processed

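Total RNA of 2 cultures was measured on whole-transcript arrays, 1 per condition. The deposited values, 1 per probe set and array, are the authors' processed values, taken here as log2 intensities from their range; for the log base, background correction, probe summarisation and genome build, the sources used here give no entry. Sorted arrays differed by at most 0.0301 at any rank, so a shift in total RNA could not be seen. Of 53427 probe sets, 16098 had 1 gene symbol in the platform annotation and 0 several; the 37329 others were unnamed here. All 14884 genes matched RefSeq GRCh38.p14 by Entrez ID. The brightest probe set stood for a gene.

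Differences are FOSL1 siRNA minus control siRNA. Each condition had a single array, so differences are descriptions without a test, and 2 arrays limit the precision. Calls are folds of 1.5. Members, lists and comparisons were chosen with earlier results of these data known. The rule for named members took the 12 highest and lowest differences, all past 1.5-fold, the 10 highest means, antisense pairs with either gene at least 0.32 log2 units apart, the LINC members' neighbours, and the 3 genes on each side of the threshold. Members on the Y chromosome were counted but not named. Alternatives were median centring, quantile normalization, trends on brightness or span removed, thresholds of 6, 8 or none, smaller and larger folds, the mean of probe sets, and genes with 1 probe set. Python 3.11.15, pandas and statsmodels were used.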

Additional observations from a re-analysis of the deposited data

Results flagged for a closer look

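In the symbols of the same kinds whose mean was below 7 and which entered no comparison, 4 of 583 (0.686%) were at least 1.5-fold higher with FOSL1 siRNA and 10 (1.72%) at least 1.5-fold lower, against 2.80% and 2.73% of the 4435 named genes with a mean below 7. The higher 4 are RBM5-AS1, with log2 values of 6.42 with FOSL1 siRNA and 5.53 with control siRNA (a difference of 0.89), LINC00312 at 0.67, LINC00588 at 0.66 and LINC00326 at 0.60. They were singled out because a signal above the control array lay in data left out of the comparison. The lower 10 are MAPT-AS1, with 3.83 with FOSL1 siRNA and 4.73 with control siRNA (a difference of -0.91), LINC02582 at -0.71, and EPHA5-AS1, LINC00691, ZNF32-AS3, LINC02995, LINC00308, PCDH9-AS3, LINC02603 and LINC02381, between -0.64 and -0.60. Being chosen from symbols with a mean below 7, all 14 necessarily lie below 7.27, the highest mean among the markers of absent cell types.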

How the results depend on the processing

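Trends on gene span and the restriction to genes with 1 probe set were chosen after seeing the data. The count of members at least 1.5-fold higher was 4 of 350. It became 8 of 350 with the span trend removed and 8 of 933 with no filter. At a mean of 8 or more it was 2 of 132. At 0.32 log2 units it was 31 of 350, against 8.01% of all genes with a mean of 7 or more. At 2-fold it was 0, against 0.163%. The count at least 1.5-fold lower was 3 of 350. It became 8 of 659 at a mean of 6 or more and 13 of 933 with no filter. At 0.32 log2 units it was 31 of 350, against 7.49% of all genes with a mean of 7 or more. At 2-fold it was 0, against 0.0287%. For the other settings the share of all genes is not given here, so those counts are no result about the members. Same-sign antisense pairs were 130 of 234 at a mean of 6 or more, 17 of 36 at 8 or more and 177 of 313 with no filter, since the filters change how many pairs enter. The median of all members ranged from -0.0597 to 0.0035 and that of LINC members from -0.0746 to 0.0065, so neither has a settled sign, and that of antisense members from -0.0505 to -0.0015. Of 315 values of named members under alternatives, 309 shifted less than the probe-set SD of 0.196 and the other 6 shifted further, each when probe sets were averaged: LINC00173 (-0.28), LINC00933 (0.30), LINC00987 (0.13), LINC01347 (0.18), RBM26-AS1 (0.05) and RPL26L1-AS1 (0.21). Since both arrays held nearly equal values at each rank, the scaling alternatives could move little. Averaging probe sets cannot move a member with 1 probe set. Many of the 309 small shifts were thus fixed in advance, and their number is no measure of robustness. No paired analysis was possible because each condition had 1 array.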
